A study of Mus musculus with 22 samples.

Results

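Interleukins are the signalling proteins by which leukocytes instruct one another, and each acts through a cell-surface receptor built from named chains. Their genes were examined here by acetylation of histone H3 on lysine 27 (H3K27ac), a mark of active promoters and enhancers, measured by ChIP–seq in Kupffer cells. The members are the autosomal windows that the deposited table assigns, by nearest transcription start site, to a gene symbol of Il followed by a digit, leaving out Il1a, Il1b, Il1rn, Il6, Il10, Il12b, Il18 and Il18bp. By that rule 345 of 96381 windows, at 52 of 17277 gene names, were members, and each window spans 1000 bp. Of these genes, 29 encode receptor chains and 23 were counted as ligands, although the ligand count takes in Il1bos, an antisense RNA opposite Il1b, and Il4i1, an amino acid oxidase, which belong by their names alone. A further 24 windows on the X chromosome were left out.

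Kupffer cells were sorted from young adult male mice labelled Control, of the inbred strain A/J, of BALB/cJ, of C57BL/6J and of the hybrid CB6F1/J. Each group had 3 H3K27ac libraries. Input DNA without antibody was used for A/J (3 libraries), BALB/cJ (3) and C57BL/6J (1). Per the study's methods the hybrids came from BALB/cJ dams and C57BL/6J sires, cells of all groups were gated as CD146-negative, CD45-positive and F4/80-high, and flavopiridol, an inhibitor of transcription, was present during perfusion and digestion of every liver. In CB6F1/J, tags that span a variant were counted apart for the BALB/cJ and the C57BL/6J allele of the same nucleus, so both alleles met the same cellular environment. Strain and all that differs between strains, cell state included, cannot be told apart in the parental libraries.

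Kupffer cells are the resident macrophages of the liver sinusoids. They respond to IL-4 and IL-13 through the IL-4 receptor α-chain and STAT6, to IL-10 through receptors that signal by JAK kinases and STAT3, and to IL-6 through gp130. They also present IL-15 bound to its receptor α-chain to NK cells and memory CD8 T cells. Receptors of the IL-1 family signal instead through MyD88 and IRAK kinases.

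Sequences of 4 stretches on which the results turn are given from the mm10 reference (GRCm38.p6, the C57BL/6J genome), on the plus strand and 5′ to 3′. The Il21r promoter had the largest strain difference between A/J and BALB/cJ among the members (chr7:125603179-125603428, the 250 bases before the RefSeq start). The Il4ra stretch lies in intron 1 (chr7:125554642-125554841) and had the lowest p between alleles. The Il15 stretch lies in intron 1 (chr8:82401183-82401382), where strain and allele differences diverged. The Il31ra stretch is the centre of a distal window (chr13:112602647-112602946) with the lowest p between A/J and C57BL/6J. Capitals mark matches, on either strand, to GAGGAA (core of PU.1 sites), TGANTCA (AP-1), TTCNNNGAA (STAT), TTGCNNAA (C/EBP), the NF-κB motif (GGG and TTTCC around a gap of 2 bases) or the IRF motif (GAAA repeated after a gap of 2 bases).
Il21r promoter: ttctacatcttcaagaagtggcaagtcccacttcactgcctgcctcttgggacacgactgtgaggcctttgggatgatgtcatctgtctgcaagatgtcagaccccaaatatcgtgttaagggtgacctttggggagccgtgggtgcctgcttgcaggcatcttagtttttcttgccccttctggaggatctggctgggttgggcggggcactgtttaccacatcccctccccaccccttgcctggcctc
Il4ra intron region: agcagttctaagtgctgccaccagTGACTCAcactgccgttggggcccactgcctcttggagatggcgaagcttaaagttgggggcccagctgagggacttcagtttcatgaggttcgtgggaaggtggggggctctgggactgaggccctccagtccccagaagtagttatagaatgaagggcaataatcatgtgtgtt
Il15 intron region: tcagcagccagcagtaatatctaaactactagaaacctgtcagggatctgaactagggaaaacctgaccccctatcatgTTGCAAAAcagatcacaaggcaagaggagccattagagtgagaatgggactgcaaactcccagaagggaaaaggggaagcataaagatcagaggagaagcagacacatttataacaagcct
Il31ra distal window: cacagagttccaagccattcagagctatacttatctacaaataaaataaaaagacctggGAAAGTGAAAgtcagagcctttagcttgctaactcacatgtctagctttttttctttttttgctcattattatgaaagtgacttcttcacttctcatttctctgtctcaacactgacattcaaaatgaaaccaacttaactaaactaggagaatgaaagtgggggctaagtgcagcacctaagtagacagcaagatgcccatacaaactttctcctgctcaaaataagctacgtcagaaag

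The Il4ra stretch held 1 AP-1 match, a motif found in 7.74% of the 4549 allelic regions tested, which have the same length. The Il15 stretch held 1 C/EBP match, present in 8.42% of those regions. The Il31ra stretch held 1 IRF match, present in 6.26% of the same-length centres of 60467 tested windows on assembled chromosomes. None of the 6 motifs was found in the Il21r stretch, whereas 23.4% of 31396 autosomal RefSeq promoters held the PU.1 core in the same 250 bases and 6.77% held the AP-1 motif. These matches describe the letters of the reference and not bound sites.

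Total H3K27ac tags in windows ranged between 2291425.5 and 12980348 in the parental libraries. Replicate 2 of every strain was the shallowest of its strain, at 2291425.5 to 2960953 tags, and 34.4% to 38.8% of its windows held a tag count that was not whole, against 0 in replicates 1 and 3. Allelic totals in CB6F1/J were 182653.5 to 400681 tags per allele and library. All 14 Kupffer cell markers examined (Clec4f, Timd4 and Vsig4 among them) had a tested promoter window. Summed over those windows, normalized tags were 2646 to 2890 in A/J libraries, 2590 to 2849 in BALB/cJ and 2823 to 4233 in C57BL/6J. Of markers of other cells, 0 of 8 for hepatocytes, 1 of 6 for B cells, 1 of 10 for T and NK cells, 3 of 8 for sinusoidal endothelium and 3 of 8 for monocytes and neutrophils had a promoter window at all. So had 1 of 8 for stellate cells, 1 of 6 for dendritic cells and 2 of 5 for innate lymphoid and mast cells. The innate lymphoid and mast cell sum was 11.8 to 14.7 in A/J libraries, 11.3 to 38.9 in BALB/cJ and 5.05 to 18.6 in C57BL/6J. The endothelial sum was 62.4 to 90.6 in BALB/cJ, against 23.6 to 37.2 in A/J and 18.3 to 46.3 in C57BL/6J, and the T and NK cell sum was 25.3 to 38.4 in A/J libraries, 15.3 to 25 in BALB/cJ and 4.64 to 15.9 in C57BL/6J, from 1 window called higher in A/J than in C57BL/6J. The monocyte and neutrophil sum, the largest of these, was 377 to 473 in A/J libraries, 364 to 440 in BALB/cJ and 409 to 711 in C57BL/6J, with 1 window called higher in BALB/cJ than in C57BL/6J. The part of these differences in the results that follow was not tested. In bulk libraries, fewer cells of a type and less of the mark per cell cannot be told apart.

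Levels are given as tags per 1000-bp window after scaling to equal effective library size (normalized tags), so windows of the same width can be compared. The promoter with most H3K27ac, among windows within 1000 bp of a start site, was that of Il10rb, the chain shared by the receptors of IL-10 and IL-22, with 480 ± 61.2 tags in A/J libraries, 503 ± 95.1 in BALB/cJ and 517 ± 83.2 in C57BL/6J (SD, n = 3 each, here and below). Il4ra, the chain shared by the IL-4 and IL-13 receptors, had 417 ± 37.2 tags in A/J libraries, 376 ± 115 in BALB/cJ and 405 ± 110 in C57BL/6J. Il6ra, the IL-6 binding chain, followed with 385 ± 67.2, 325 ± 80.4 and 330 ± 46.5 tags in that order of strains, and Il3ra, the IL-3 binding chain, with 399 ± 104, 252 ± 76.2 and 294 ± 78.7. At these 4 windows the levels overlapped between the 3 strains. A neighbouring Il3ra window was higher in A/J than in BALB/cJ without overlap of libraries. Its log2 fold change of 0.97 (edgeR, SE 0.27, adjusted p = 0.0409) was too small to be called.

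Among ligands the promoter of Il23a, the p19 chain of IL-23, ranked highest, with 278 ± 63.6 tags in A/J libraries, 260 ± 16.4 in BALB/cJ and 343 ± 72 in C57BL/6J. Il15 had 191 ± 28.7 tags in A/J libraries, 196 ± 41.8 in BALB/cJ and 277 ± 48.2 in C57BL/6J. Il16, a ligand of CD4, had 174 ± 31.5, 146 ± 17.8 and 118 ± 15.4 tags in the same order of strains, and Il27, the p28 chain of IL-27, had 90.8 ± 20.6, 62.1 ± 15.1 and 87 ± 5.7. The remaining 4 of the 12 highest promoters belonged to receptors. They were Il10ra (274 ± 40.5 tags in A/J, 254 ± 4.1 in BALB/cJ, 295 ± 33.2 in C57BL/6J), Il6st, which encodes gp130 (283 ± 44.8, 235 ± 30.4, 221 ± 69), Il15ra (218 ± 20.2, 205 ± 34.1, 181 ± 15.9) and Il17ra (138 ± 26.8, 195 ± 53.3, 154 ± 11.1). No pair of strains differed past the test at the window taken as promoter, the one with most tags within 1000 bp of a start site, of any of these 12 genes. At Il15 a further window within 1000 bp, centred 778 bp from the start, was called (BALB/cJ over C57BL/6J -1.28). Neighbouring ranks mostly lay within 1 SD of each other, and the clear step was between Il16 and Il27.

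**Figure D1:**
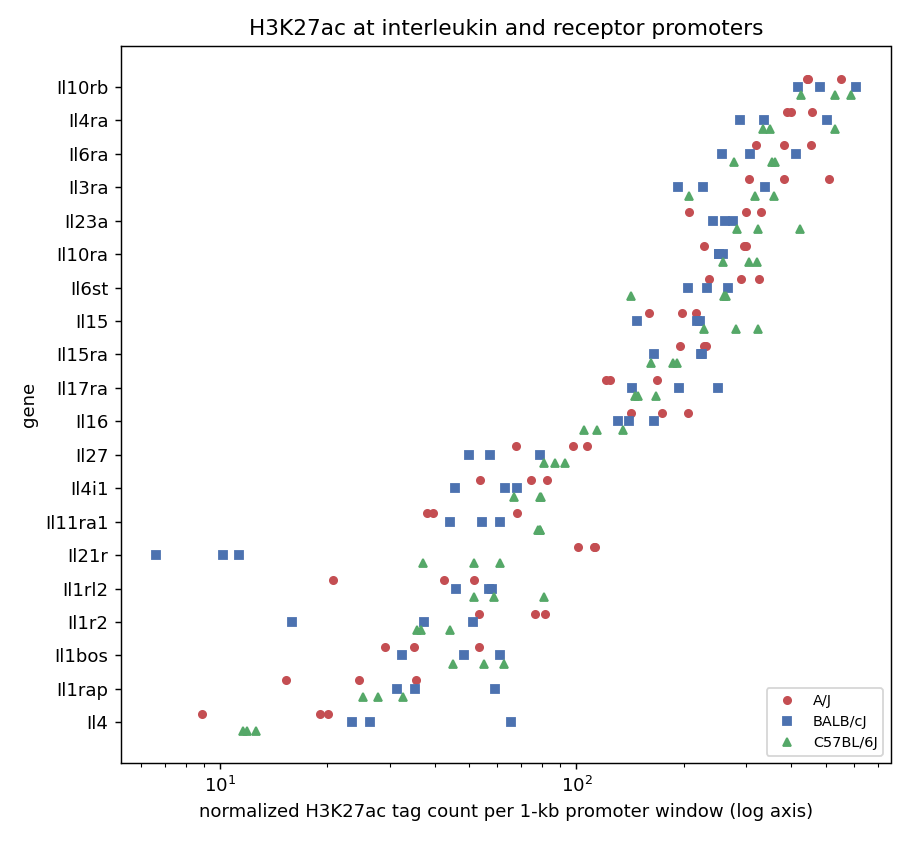
Normalized H3K27ac tags (log axis) in the promoter window of 20 member genes, ordered by mean, with 1 point per library of each strain. A strain difference was called at 2 of the 20 windows, Il21r, where the A/J libraries lie at 101 to 113 tags and the BALB/cJ libraries at 6.61 to 11.3, and Il4, where the BALB/cJ libraries lie at 23.5 to 65.7 and the C57BL/6J libraries at 11.6 to 12.6.

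At the other end, 17 genes had no window with enough tags to be tested. They included Il7, Il3, Il13, Il22, Il2ra, the IL-2 receptor α-chain of activated T cells, and Il27ra. In the promoter windows of Il33, Il11, Il12a and Il17d the strain means were 1.7 to 6.72 tags. In all, 208 of the 345 windows (60.3%), at 35 genes, passed the minimum mean of 16 normalized tags, against 62.8% of all windows. Of the 53 member windows that came from ATAC-seq peaks seen only after lipopolysaccharide, 16 passed.

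A window was called different when the Benjamini-Hochberg adjusted p over all 60528 windows tested was under 0.05 and the absolute log2 fold change over 1 (edgeR quasi-likelihood test). Between A/J and BALB/cJ, 8 member windows were higher in A/J and 4 lower, 5.77% of the 208 tested, where 3.65% of all windows tested were called, 1.37% higher in A/J and 2.28% lower. They lay at 7 genes, higher at Il21r, Il4ra, Il6st and Il27 and lower at Il17ra, Il1rl1 and Il5ra. Between A/J and C57BL/6J, 6 windows were higher in A/J and 5 lower (5.29%, against 7.13% of all windows, 3.17% higher and 3.96% lower). They lay at 9 genes, higher at Il20rb, Il15, Il21r and Il1r2 and lower at Il31ra, Il4ra, Il16, Il1bos and Il6st. Between BALB/cJ and C57BL/6J, 12 windows were higher in BALB/cJ and 15 lower (13%, against 8.6% of all windows, 4.53% higher and 4.07% lower). They lay at 10 genes, higher alone at Il20rb, Il4, Il1rl1 and Il12rb1, lower alone at Il4ra, Il16 and Il31ra, and in both directions at Il21r, Il15 and Il1bos. Median log2 fold changes over the members were 0.12, 0.05 and -0.01 in these 3 comparisons, beside 0.00, -0.01 and -0.01 over all windows. The comparisons share libraries and 172 of the member windows overlap another, so calls at neighbouring windows can rest on the same tags.

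Across the 3 comparisons 36 windows at 15 genes were called, and of these 4 lay within 1000 bp of a start site, where 41 of the 208 tested windows lay. Another 17 lay outside any RefSeq gene, and 6 lay inside a gene other than the one named, where 82 and 21 of the tested windows lay. Shares of all windows called in any comparison, or by position, were not computed. Families were counted between BALB/cJ and C57BL/6J, where 8.6% of all windows tested were called. The IL-4 and IL-13 group (Il4, Il4ra and Il13) had 1 window higher and 5 lower in BALB/cJ out of 14 tested. The common γ-chain group had 3 higher and 6 lower of 49, at Il15 and Il21r. In the IL-10 group 5 were higher and 0 lower of 42, all at Il20rb, while Il10ra and Il10rb had 0 called of 8 and 16 tested windows. The IL-1 group had 3 called of 25, IL-12 1 of 7, IL-17 0 of 14 and the common β-chain 0 of 10. The IL-6 and gp130 group had 1 of 30, and Il16 with Il4i1 had 2 of 17. With the replicate number as a block, 5 calls were added between A/J and BALB/cJ, 4 between A/J and C57BL/6J and 1 between BALB/cJ and C57BL/6J, and 0 ended.

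**Figure D2:**
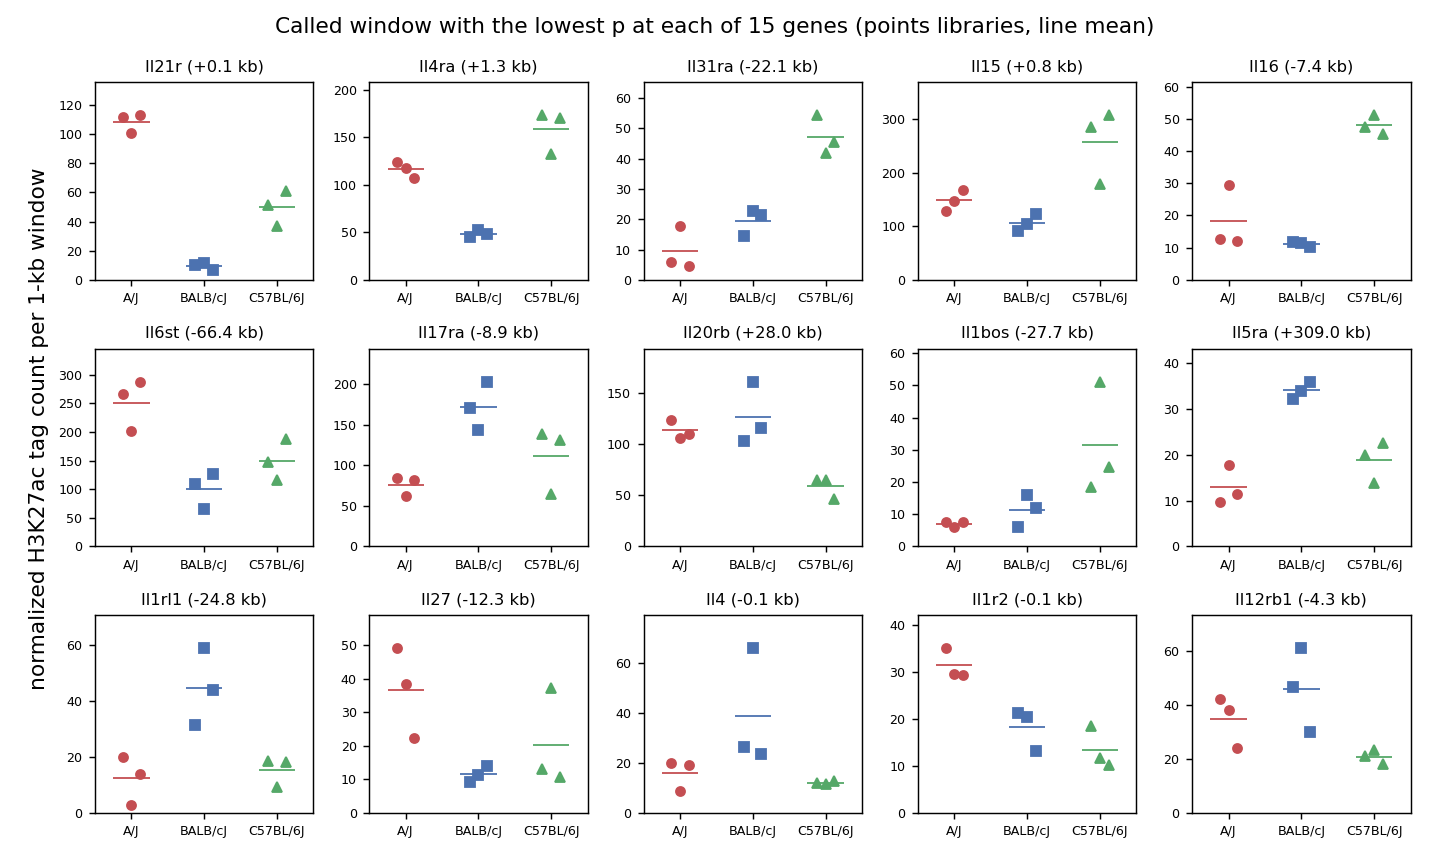
Normalized H3K27ac tags in 9 libraries at the called window with the lowest p of each of the 15 genes with a call, with the distance from the start site in the panel titles; points are libraries and lines are strain means. Windows were picked by p, so libraries of the strains called different lie apart in every panel largely through that choice. At Il4 the BALB/cJ libraries spread between 23.5 and 65.7 tags.

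The receptor genes Il4ra and Il21r are neighbours on chromosome 7 and accounted for 11 of the 36 called windows. Il21r encodes the IL-21 binding chain, which pairs with the common γ-chain. At its promoter (chr7:125603027-125604027, the window that spans the Il21r stretch printed above) A/J libraries had 112, 101 and 113 tags, BALB/cJ libraries 10.2, 11.3 and 6.61, and C57BL/6J libraries 51.6, 37.1 and 61.2. The 3 strains did not overlap. The log2 fold change was 3.60 for A/J over BALB/cJ (SE 0.33, adjusted p = 4.9e-08), a 12.2-fold difference. It was 1.08 for A/J over C57BL/6J (SE 0.27, adjusted p = 0.00865) and -2.53 for BALB/cJ over C57BL/6J (SE 0.34, adjusted p = 8.1e-06). Input tags at this window, scaled to the same total, were 55.2 in A/J inputs, 67.3 in BALB/cJ and 56.2 in C57BL/6J, so the low BALB/cJ signal was not matched by low input. The call for A/J over C57BL/6J was lost without replicate 2 of C57BL/6J (log2 0.94, adjusted p = 0.0329).

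Called windows on either side of the Il21r promoter had smaller differences than the promoter itself. Among the windows between them, that at -3545 bp, not called, had means of 48.6 tags in A/J libraries, 37.2 in BALB/cJ and 31.2 in C57BL/6J. At -2127 bp, A/J libraries had 268, 198 and 228 tags, BALB/cJ libraries 107, 125 and 109, and C57BL/6J libraries 247, 149 and 288, with a log2 fold change of 1.05 for A/J over BALB/cJ (SE 0.24, adjusted p = 0.00828) and -1.04 for BALB/cJ over C57BL/6J (SE 0.24, adjusted p = 0.00428). At -6162 bp these fold changes were 1.05 (SE 0.28) and -1.44 (SE 0.27), with adjusted p of 0.0257 and 6.1e-04. In intron 1, at +4140 bp, A/J was higher than BALB/cJ by 1.38 (SE 0.37, adjusted p = 0.0297). Without BALB/cJ replicate 3 the 3 calls of A/J over BALB/cJ had adjusted p of 0.0625, 0.136 and 0.188, and each was lost without 2 further libraries (A/J replicate 1 and BALB/cJ replicate 1 at -2127 bp, A/J replicate 3 and BALB/cJ replicate 1 at -6162 bp, A/J replicate 1 and BALB/cJ replicate 2 at +4140 bp). The call at -2127 bp against C57BL/6J was lost without C57BL/6J replicates 1 (log2 -0.99) or 3 (-0.83), and that at -6162 bp was kept under every alternative.

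Farther from the Il21r promoter, on both sides, the sign turned. At +19913 bp, in intron 2, BALB/cJ libraries had 127, 134 and 111 tags and C57BL/6J libraries 41, 25.5 and 47.3 (log2 1.62, SE 0.27, adjusted p = 1.3e-04), with A/J between them at 64.7, 79.8 and 51.7. At -21972 bp, BALB/cJ libraries had 51.8, 45.3 and 41.9 tags and C57BL/6J libraries 25.1, 9.28 and 9.47 (log2 1.68, SE 0.41, adjusted p = 0.00651, and 0.1 without C57BL/6J replicate 3). A single gene thus held 3 windows lower and 2 windows higher in BALB/cJ than in C57BL/6J.

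At Il4ra, whose product carries IL-4 and IL-13 signals that drive alternative macrophage activation, the promoter was level between strains and the differences lay around it. At +1274 bp in intron 1 (chr7:125553056-125554056), A/J libraries had 124, 118 and 107 tags, BALB/cJ libraries 45, 52.1 and 47.7, and C57BL/6J libraries 173, 132 and 170. The log2 fold change was 1.28 for A/J over BALB/cJ (SE 0.24, adjusted p = 0.00119) and -1.74 for BALB/cJ over C57BL/6J (SE 0.24, adjusted p = 9.0e-06), and A/J and C57BL/6J differed by -0.46 (adjusted p = 0.252). At +2333 bp, the window around the printed Il4ra stretch, A/J libraries had 161, 142 and 152 tags, BALB/cJ libraries 82.4, 63.4 and 74.9, and C57BL/6J libraries 185, 149 and 191. There BALB/cJ was lower than C57BL/6J (log2 -1.24, SE 0.23, adjusted p = 3.9e-04), and A/J was higher than BALB/cJ by 1.03 (SE 0.23, adjusted p = 0.00585), which dropped under the fold threshold without A/J replicate 1 (0.98) or BALB/cJ replicate 2 (0.96).

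The upstream Il4ra window at -5730 bp separated C57BL/6J from both other strains. A/J libraries had 14.1, 5.91 and 16 tags, BALB/cJ libraries 6.8, 2.27 and 8.08, and C57BL/6J libraries 38.4, 44.1 and 43.5. The log2 fold change was -1.63 for A/J over C57BL/6J (SE 0.39, adjusted p = 0.0071) and -2.67 for BALB/cJ over C57BL/6J (SE 0.44, adjusted p = 1.0e-04). Scaled input at this window was 60.1 in A/J inputs, 65.6 in BALB/cJ and 137 in the single C57BL/6J input, so input moved with the ChIP signal here, and its part in the result was not tested. Overlapping windows at -10238 and -9596 bp were lower in BALB/cJ than in C57BL/6J (log2 -1.25 and -1.29), calls lost without BALB/cJ replicate 3 (adjusted p = 0.107 and 0.144) or C57BL/6J replicate 3 (0.0807 and 0.087), and at -10238 bp without C57BL/6J replicate 1 (0.06).

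**Figure D3:**
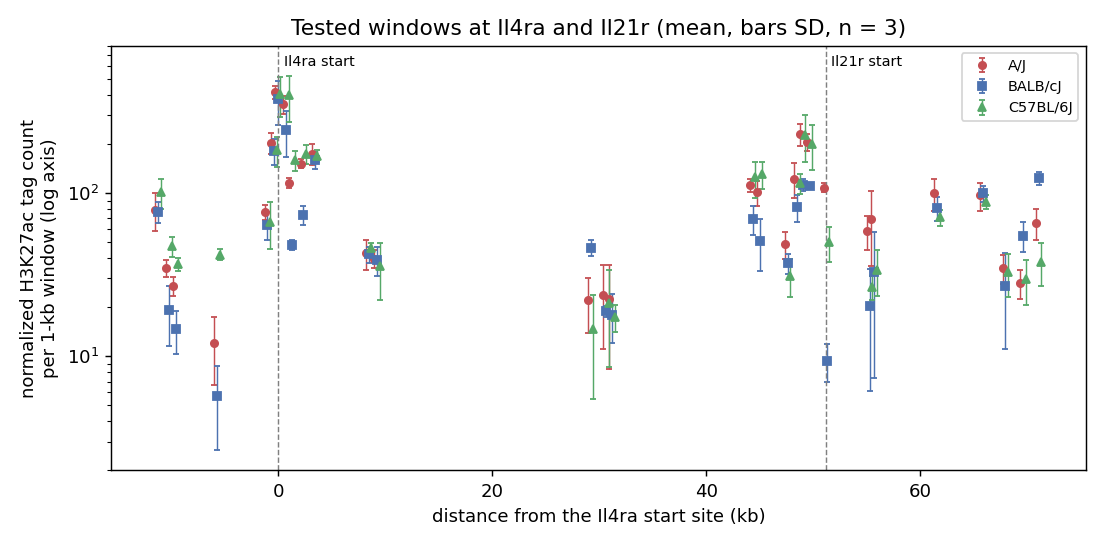
Mean normalized H3K27ac tags (log axis, bars SD, n = 3) in the tested windows of Il4ra and Il21r against distance from the Il4ra start in the 3 strains; dashed lines mark both start sites. BALB/cJ falls below the other strains in Il4ra intron 1 (45 to 52.1 tags at +1274 bp) and at the Il21r promoter, and lies above them at the Il21r window at +19913 bp.

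Il20rb encodes a chain of the receptor for IL-19, IL-20 and IL-24. It had no window within 1000 bp of its start site, and 6 of its 13 tested windows, all between 27993 and 51829 bp downstream of the start, were called in at least 1 comparison, each higher in A/J or BALB/cJ than in C57BL/6J. Of these 6, only that at 27993 bp lay within Il20rb. The others lay outside it, in another RefSeq gene or in none. At 27993 bp, over the last exon, A/J libraries had 124, 106 and 110 tags, BALB/cJ libraries 103, 161 and 116, and C57BL/6J libraries 64.8, 65 and 46.1. BALB/cJ was higher than C57BL/6J by 1.12 (SE 0.26, adjusted p = 0.00396), and A/J over C57BL/6J at 1.00 (adjusted p = 0.0118) fell just short of the fold threshold, which it passed with the block (1.03). At 46029 bp the values were 90.8, 127 and 93.2 in A/J, 125, 74.8 and 95.5 in BALB/cJ, and 56.9, 51.1 and 26.5 in C57BL/6J, with log2 fold changes of 1.24 (SE 0.30, adjusted p = 0.00744) for A/J and 1.23 (SE 0.30, adjusted p = 0.00665) for BALB/cJ over C57BL/6J. Scaled input at 46029 bp was 83.7 in A/J inputs, 75.8 in BALB/cJ and 25 in the C57BL/6J input, and its part in the result was not tested. All 8 calls at Il20rb were lost without replicate 3 of C57BL/6J, the deepest library, with adjusted p at 46029 bp of 0.124 for A/J and 0.105 for BALB/cJ. BALB/cJ replicate 1 (0.0603 at 46029 bp) and replicate 2 (log2 0.93 at 27993 bp) also decided calls.

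At the receptor genes Il6st and Il31ra, 3 distal windows were called. Il6st, which encodes gp130 itself, had a window at -66405 bp with 266, 201 and 288 tags in A/J, 109, 65.7 and 126 in BALB/cJ, and 147, 116 and 187 in C57BL/6J (A/J over BALB/cJ 1.30, SE 0.25, adjusted p = 0.00149). A second Il6st window, at -47465 bp, went the other way, with 38, 50.3 and 42.8 tags in A/J and 78.1, 95.2 and 86.5 in C57BL/6J (log2 -1.02, SE 0.27, adjusted p = 0.0164), lost without A/J replicates 1 (0.0975) or 3 (0.0706) or C57BL/6J replicates 2 (log2 -0.96) or 3 (0.0749). That second window lies inside a RefSeq gene other than Il6st. Il31ra, a chain of the IL-31 receptor, was called at -22134 bp, the window of the printed Il31ra stretch, which lies inside intron 18 of 21 of Ddx4, a germ-cell RNA helicase gene. A/J libraries had 5.95, 17.7 and 4.47 tags there, BALB/cJ libraries 14.4, 22.7 and 21.3, and C57BL/6J libraries 54.3, 41.8 and 45.4. A/J was lower than C57BL/6J (log2 -2.74, SE 0.44, adjusted p = 9.1e-05) and so was BALB/cJ (log2 -1.31, SE 0.38, adjusted p = 0.025). The call for A/J was kept under every alternative that tested the window, which a minimum of 32 tags left out, and that for BALB/cJ was lost without replicates 1 (0.142) or 3 (0.0743) of BALB/cJ or replicates 1 (0.113) or 3 (0.0845) of C57BL/6J.

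Il17ra, the common chain of IL-17 receptors, was lower in A/J than in BALB/cJ at a pair of adjacent upstream windows. At -8948 bp, A/J libraries had 84.8, 62.1 and 81.7 tags and BALB/cJ libraries 171, 143 and 203 (log2 -1.15, SE 0.26, adjusted p = 0.00764). At -9835 bp the log2 fold change was -1.14 (SE 0.31, adjusted p = 0.0345). C57BL/6J lay between, at 138, 65 and 131 tags at -8948 bp, and the call there was lost without BALB/cJ replicate 3 (adjusted p = 0.08). At -9835 bp the call was lost without any of 5 single libraries (adjusted p = 0.0513 to 0.169).

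The other called receptor windows were of low signal. Il1rl1 (the IL-33 receptor ST2) at -24789 bp had 20.1, 2.96 and 14 tags in A/J, 31.4, 58.9 and 44.1 in BALB/cJ and 18.5, 9.28 and 18.3 in C57BL/6J, so BALB/cJ was above both (A/J over BALB/cJ -1.57, SE 0.41, adjusted p = 0.0247; BALB/cJ over C57BL/6J 1.40, SE 0.41, adjusted p = 0.0265). The window named for Il5ra, the IL-5 binding chain, lay 309002 bp from its start in an intron of Cntn4, a neuronal adhesion gene. It held 9.67, 17.7 and 11.5 tags in A/J against 32.3, 34 and 36 in BALB/cJ (log2 -1.52, SE 0.39, adjusted p = 0.0196). Leaving out A/J replicate 3 or BALB/cJ replicate 3 ended the A/J over BALB/cJ calls at Il1rl1 (0.119 and 0.114) and Il5ra (0.119 and 0.108), and leaving out BALB/cJ replicate 2 ended those at Il1rl1 (0.0809 against A/J and 0.0816 against C57BL/6J). The Il1rl1 call against A/J was also lost without A/J replicate 2 (0.0577). That at Il5ra was also lost without A/J replicate 1 (0.125) or BALB/cJ replicate 1 (0.0563). The Il1rl1 call against C57BL/6J was also lost without BALB/cJ replicate 3 or any single C57BL/6J replicate (0.065 to 0.096). Il1r2, the decoy receptor for IL-1, was higher in A/J (35, 29.6 and 29.4 tags) than in C57BL/6J (18.5, 11.6 and 10.1) at -141 bp, a window that also overlaps Gm16894, with a log2 fold change of 1.26 (SE 0.40, adjusted p = 0.0496) that 13 of the alternatives did not pass. Il12rb1, the chain shared by the IL-12 and IL-23 receptors, was higher in BALB/cJ (46.7, 61.2 and 30.1) than in C57BL/6J (21.2, 23.2 and 18.3) at -4333 bp, inside Mast3 (log2 1.11, SE 0.36, adjusted p = 0.047), a call that 11 alternatives did not pass.

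Among the ligands, Il15 had 20 tested windows and the most calls. Within intron 1, H3K27ac was lower in BALB/cJ than in C57BL/6J at 3 windows, of which those at +778 and +1316 bp overlap. At +778 bp, A/J libraries had 129, 148 and 168 tags, BALB/cJ libraries 91.7, 104 and 123, and C57BL/6J libraries 286, 179 and 307 (BALB/cJ over C57BL/6J -1.28, SE 0.24, adjusted p = 4.4e-04). At +1316 bp, around the printed Il15 stretch, the values were 96.7, 118 and 142 in A/J, 101, 109 and 120 in BALB/cJ, and 234, 135 and 293 in C57BL/6J (-1.03, SE 0.25, adjusted p = 0.00772). At +3392 bp they were 138, 174 and 156 in A/J, 116, 127 and 120 in BALB/cJ, and 241, 234 and 333 in C57BL/6J (-1.17, SE 0.22, adjusted p = 5.1e-04). A/J lay below C57BL/6J at these windows too (log2 -0.81, -0.91 and -0.81, adjusted p = 0.0283, 0.022 and 0.016), short of the fold threshold. Without C57BL/6J replicate 3 the calls at +1316 bp (-0.77, adjusted p = 0.107) and +3392 bp (-0.98, adjusted p = 0.00888) were lost, the first also without BALB/cJ replicate 1 (-0.97) or C57BL/6J replicate 1.

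Deep in intron 2, at 46030 bp, the Il15 order was inverted. A/J libraries had 19.3, 32.5 and 27.4 tags, BALB/cJ libraries 39.9, 24.9 and 32.3, and C57BL/6J libraries 10.6, 9.28 and 3.79. BALB/cJ exceeded C57BL/6J by 2.24 (SE 0.46, adjusted p = 0.00129) and A/J exceeded it by 1.85 (SE 0.47, adjusted p = 0.0111). The A/J call was lost without A/J replicate 3 (0.0577) or C57BL/6J replicate 3 (0.179), and the BALB/cJ call was kept under every alternative that tested the window, which a minimum of 32 tags left out. At 51069 bp, A/J was higher with the replicate block alone, by 1.18 over C57BL/6J (adjusted p = 0.00943) and by 1.00 over BALB/cJ (adjusted p = 0.0374).

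Il16 was lower than in C57BL/6J at -7388 bp in both other strains, with 12.7, 29.6 and 12.1 tags in A/J, 11.9, 11.3 and 10.3 in BALB/cJ, and 47.6, 51.1 and 45.4 in C57BL/6J (A/J over C57BL/6J -1.62, SE 0.38, adjusted p = 0.00528; BALB/cJ over C57BL/6J -2.09, SE 0.39, adjusted p = 4.8e-04). The A/J call was lost without A/J replicates 1 (0.0544) or 3 (0.0686). Il27 at -12319 bp had 49.1, 38.4 and 22.3 tags in A/J against 9.34, 11.3 and 14 in BALB/cJ (log2 1.62, SE 0.46, adjusted p = 0.0424), lost on leaving out any of 6 single libraries (0.0534 to 0.284). Il4, the cytokine that signals through Il4ra, was called at its promoter, with 26.3, 65.7 and 23.5 tags in BALB/cJ against 11.9, 11.6 and 12.6 in C57BL/6J (log2 1.53, SE 0.45, adjusted p = 0.0262). The mean of this window over the 9 libraries was 22.2 tags, near the minimum of 16. It was 0.297 of scaled input, against 5.45 at the Il4ra promoter. That Il4 call was lost without replicate 2 of BALB/cJ (log2 1.02, adjusted p = 0.165) or replicates 1 (0.0852) or 3 (0.114) of C57BL/6J. The windows named for Il1bos were called in opposite directions between BALB/cJ and C57BL/6J, higher in BALB/cJ at -9085 bp and lower at -27663 bp. The lower call was lost without BALB/cJ replicates 1 (log2 -1.15, adjusted p = 0.225) or 3 (log2 -1.64, adjusted p = 0.108). At -27663 bp, A/J (7.44, 5.91 and 7.66 tags) was lower than C57BL/6J (18.5, 51.1 and 24.6; log2 -1.99, SE 0.49, adjusted p = 0.00854), and at -9085 bp BALB/cJ (108, 111 and 85.9) was higher than C57BL/6J (45, 62.7 and 40.4) by 1.08 (SE 0.27, adjusted p = 0.00776, and 0.0837 without C57BL/6J replicate 3).

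To ask whether strain differences followed the allele, counts of the BALB/cJ and the C57BL/6J allele were compared within CB6F1/J. Of 790 hybrid regions of 200 bp assigned to the members, 195 held any allelic tag and 18, at 9 genes, had enough to be tested. The study's methods give 1000-bp windows for these counts, whereas the deposited regions are 200 bp wide. Of 1623 pairs of regions centred within 400 bp of each other with at least 20 tags in either, 58.3% had 0 tags in the other. None of the 18 was called (edgeR, 1 at an unadjusted p under 0.05, and 0 called by DESeq2), where 6.18% of the 4549 regions tested were called. The lowest p was that of the Il4ra stretch printed above, at +2459 bp. There the BALB/cJ allele had 8.22, 26.4 and 10.6 normalized tags and the C57BL/6J allele 28.9, 31.3 and 40, with no overlap between the alleles (log2 -1.09, SE 0.48, adjusted p = 0.274). At an Il17ra region in intron 1, at +8184 bp, the BALB/cJ allele had 11, 19.4 and 24.5 tags and the C57BL/6J allele 38.6, 32.8 and 33.9 (log2 -0.91, SE 0.44, adjusted p = 0.333). The remaining 16 regions ranged in log2 fold change between -0.86 (Il16) and 0.88 (Il1bos). Tested regions held 104 to 296.5 raw tags over the 6 allelic counts.

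Strain and allele differences were then compared directly at 22 windows, at 9 genes, into which the hybrid regions were summed, in a single fit of parental and hybrid counts. The strain differences in this comparison are those of the joint fit and differ slightly from the values of the parental fit above. Strain counts hold all tags of a 1000-bp window. Allele counts hold only tags that span a variant, in the regions of 200 bp within it, so a part is set against the whole. Of the 27 windows called between BALB/cJ and C57BL/6J, 5 could be examined and 22 had too few allelic tags, the Il21r promoter among them. In this fit 1 of the 22 windows was called between alleles, where 11.3% of 5306 windows were called. It was Il4ra at +2333 bp, where the BALB/cJ allele was lower (log2 -1.07, SE 0.34, adjusted p = 0.0323), beside a strain difference of -1.18 (SE 0.27). The difference between the contrasts, strain minus allele, was -0.11 (SE 0.44, adjusted p = 0.955). When the hybrid counts were fitted without the parental libraries the same allele difference of -1.10 had an adjusted p of 0.199.

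At Il15 the contrasts parted. At +1316 bp, which holds 1 hybrid region, the BALB/cJ allele had 42.2, 71.8 and 52.5 tags and the C57BL/6J allele 39.2, 45.4 and 36.6. The allele difference was 0.47 (SE 0.28, adjusted p = 0.324) beside a strain difference of -0.95 (SE 0.25). Strain minus allele was -1.42 (SE 0.37, adjusted p = 0.025), 1 call of 22 where 2.92% of all windows were called. At +3392 bp the allele difference was 0.10 (SE 0.28) beside a strain difference of -1.10 (SE 0.23), and strain minus allele was -1.20 (SE 0.37, adjusted p = 0.0714, or 0.0198 with the replicate block). The other 4 Il15 windows had strain minus allele differences of -0.72 to -0.32, none past the test. For +1316 bp the adjusted p ranged between 0.0117 and 0.117 as single libraries were left out, and exceeded 0.05 without BALB/cJ replicates 1 or 3, C57BL/6J replicates 1 or 3, or CB6F1/J replicates 2 or 3.

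**Figure D4:**
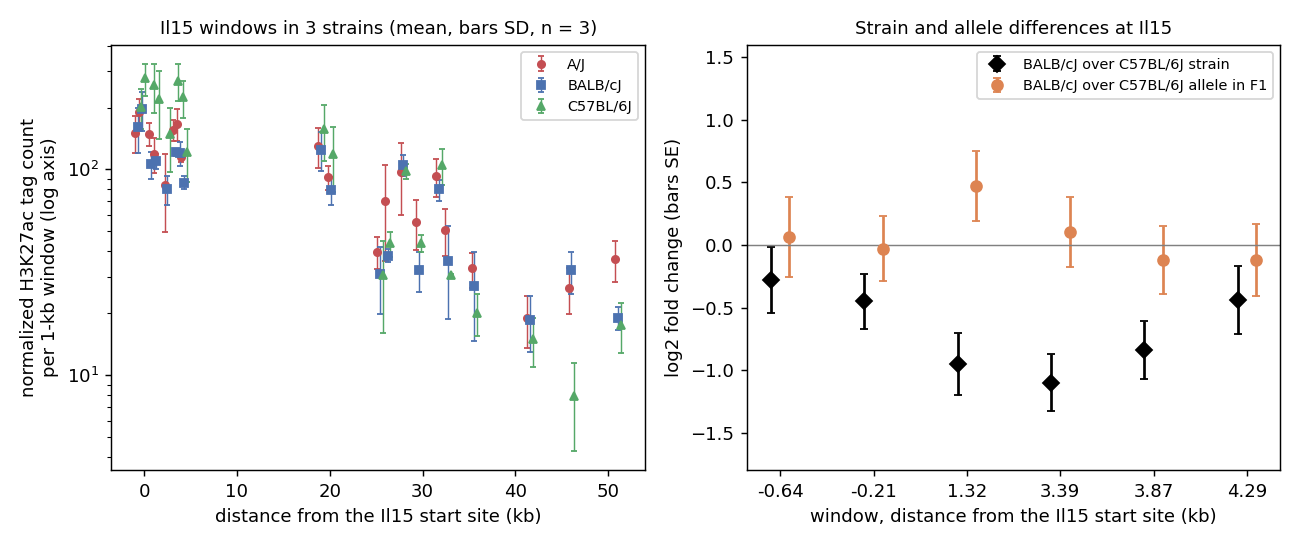
Left, mean normalized H3K27ac tags (log axis, bars SD, n = 3) in the tested Il15 windows against distance from the start site in the 3 strains. Right, log2 fold changes (bars SE) of BALB/cJ over C57BL/6J between strains (diamonds) and between alleles of CB6F1/J (circles) at 6 Il15 windows; both from the joint fit; at 1316 and 3392 bp the strain values are -0.95 and -1.10 and the allele values 0.47 and 0.10.

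For the other strain calls with allelic tags the data did not separate the contrasts. At Il20rb, 33797 bp from the start, the strain difference was 1.10 and the allele difference 0.79 (SE 0.39, adjusted p = 0.206), and strain minus allele was 0.31 (SE 0.50). At Il1bos, -9085 bp, the strain difference was 1.13 and the allele difference 0.91 (SE 0.45, adjusted p = 0.205), and strain minus allele was 0.21 (SE 0.58). Windows not called between strains are given next. In Il16, overlapping windows at 8118 and 7703 bp had strain differences of 0.31 (SE 0.31) and 0.08 (SE 0.28). Their allele differences were -0.87 (SE 0.38, adjusted p = 0.144) and -0.88 (SE 0.36, adjusted p = 0.111). Strain minus allele was 1.18 (SE 0.49, adjusted p = 0.238) and 0.96 (SE 0.46, adjusted p = 0.34). At the Il4ra promoter, also not called between strains, the strain difference was -0.04 (SE 0.20) and the allele difference 0.01 (SE 0.26).

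**Figure D5:**
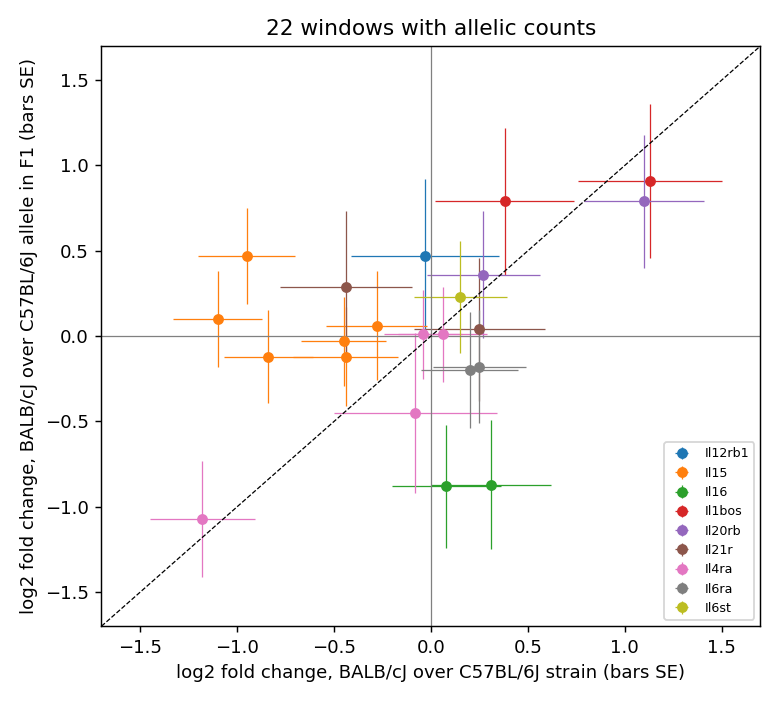
Log2 fold change of the BALB/cJ over the C57BL/6J allele in CB6F1/J against that of the BALB/cJ over the C57BL/6J strain, both from the joint fit, at 22 member windows, coloured by gene, with bars for SE and a dashed line of equality. Il4ra at +2333 bp lies near the line at -1.18 and -1.07, and the Il15 windows lie left of it.

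Signalling genes downstream of these receptors, from JAK kinases and STAT factors to SOCS proteins, MyD88 and IRAK kinases, were read in the same fits. Of the 27 genes listed, 25 had windows, 150 of them tested. Called windows numbered 4 higher and 3 lower in A/J than in BALB/cJ (4.67%), 2 higher and 2 lower in A/J than in C57BL/6J (2.67%), and 8 higher and 7 lower in BALB/cJ than in C57BL/6J (10%), set beside 3.65%, 7.13% and 8.6% of all windows. Among the lowest p values were those of negative regulators of cytokine signalling. At 1520 bp from its start Ptpn6, which encodes the phosphatase SHP-1, had 153 ± 27.4 tags in A/J libraries, 53.2 ± 1.78 in BALB/cJ and 223 ± 54.7 in C57BL/6J (BALB/cJ over C57BL/6J -2.08, SE 0.25, adjusted p = 1.2e-06). A window 16789 bp from the start of Cish, a SOCS-family inhibitor induced by STAT5, had 16.5 ± 1.62 tags in A/J libraries, 24.8 ± 4.5 in BALB/cJ and 123 ± 44.4 in C57BL/6J (A/J over C57BL/6J -2.95, SE 0.32, adjusted p = 3.4e-07). Csf2rb2, the mouse IL-3 receptor β-chain, was higher in A/J than in C57BL/6J at 4750 bp, by 1.94 (SE 0.40, adjusted p = 0.00163).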

How the data were processed

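The authors mapped reads with Bowtie2 to each strain's genome, shifted them to mm10 and counted tags with HOMER in 1000-bp windows around merged ATAC-seq peaks. The deposited values are raw counts for replicates 1 and 3 of each strain. Replicate 2, the inputs and the allelic columns were deposited as estimated counts in steps of 0.5, whose origin is not given in the sources used here, and all were rounded to whole numbers. Allelic counts by the authors come from perfectly mapped reads that span a variant. The 6 deposited columns of perfect reads and the inputs of CB6F1/J were not used here.

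Libraries were scaled by TMM and windows with a mean over 16 normalized tags were tested with edgeR 4.0.16 (R 4.3.3), the 9 parental libraries in 1 fit with 3 contrasts, and the alleles apart. DESeq2 1.42.0 served as an alternative, beside other scalings, filters and left-out libraries. The SE of a log2 fold change was derived from its F statistic. Named windows are the called window of lowest p at each gene, with neighbours at Il4ra, Il21r, Il15, Il20rb and Il1bos chosen after their values were seen, and the 12 highest promoters. A result at 1 signalling gene that this rule would name is not reported here. Members, lists and rules were chosen with earlier results of these data known. Counts were simulated at a dispersion of 0.05 for every comparison. Of windows changed by log2 folds of 1.5 and 2 between A/J and BALB/cJ, 71% and 98% were recovered over 60528 windows. Between alleles 84% and 97% were recovered over 4549 regions, and for the strain minus allele difference 64% and 85% over 5306 windows. The square root of the fitted dispersion was 0.2134 in the parental fit and 0.3174 in the allele fit. Allelic counts thus spread more than simulated, and recovery between alleles is likely overstated.

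After removal of strain means, libraries of the same replicate number correlated at 0.2332 to 0.4162 in all 9 pairs, while the labels give no shared batch, and alleles of 1 number come from 1 library. Unless the block is named, p-values and SEs come from fits that leave these pairs out, also between alleles. A block for the replicate number was run as an alternative. Nothing states that replicates came from separate animals, so p-values measure the spread between these libraries. For 338 of 345 member windows the distance to the start site matched the GRCm38.p6 annotation within 50 bp. Promoters are RefSeq sequences of that build.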

Additional observations from a re-analysis of the deposited data

Results flagged for a closer look

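At the Il15 window 1316 bp from the start site, the BALB/cJ over C57BL/6J difference between strains and that between alleles of CB6F1/J differed, with strain minus allele at -1.42 (SE 0.37, adjusted p = 0.025 from the edgeR fit of parental and hybrid counts). In that fit the strain difference was -0.95 and the allele difference 0.47 (adjusted p = 0.324). The BALB/cJ allele was higher than the C57BL/6J allele in 3 of 3 libraries, in replicate 1 at 42.2 against 39.2 tags. It was 1 call of 22 windows, where 2.92% of all windows were called. The adjusted p of the call exceeded 0.05, at 0.0569 to 0.117, without BALB/cJ replicates 1 or 3, C57BL/6J replicates 1 or 3, or CB6F1/J replicates 2 or 3. The allele value rests on tags that span a variant in 1 region of 200 bp, and the strain value on all tags of the 1000-bp window.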

How the results depend on the processing

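Called windows numbered 12 between A/J and BALB/cJ, 11 between A/J and C57BL/6J and 27 between BALB/cJ and C57BL/6J. With single libraries left out these counts were 4 to 15, 3 to 15 and 9 to 28. The lowest came without BALB/cJ replicate 3 (4) and without C57BL/6J replicate 3 (3 and 9), and counts also moved by over 1.5 times without A/J replicate 1 (7 between A/J and BALB/cJ) and without C57BL/6J replicate 1 (17 between BALB/cJ and C57BL/6J). A stricter minimum of 32 normalized tags, which tested 158 windows, left 5 and 17 calls against C57BL/6J. Leaving out replicate 2 of every strain gave 14, 19 and 26 calls. With the replicate block the counts were 17, 15 and 28, and every call of the fit without it was kept. Windows tested and called under all 18 alternatives were 3, 0 and 6, and those called wherever they were tested, some being left out by stricter minimums or single libraries, were 3, 3 and 9, namely the Il21r promoter, Il4ra at +1274 bp and Il6st at -66405 bp for A/J over BALB/cJ, Il31ra, Il4ra at -5730 bp and Il1bos at -27663 bp for A/J over C57BL/6J, and 9 windows of Il21r, Il4ra, Il15 and Il16 for BALB/cJ over C57BL/6J. Over 60 single windows and regions, 834 values kept their side of the threshold, 144 lost it, 2 gained it and 0 changed sign. Between alleles 0 regions were called, 0 to 0 with single hybrid libraries left out and 0 with the library as a block, but 3 of 195 without a filter on low counts. Strain minus allele differences were called at 1 window, 0 to 1 with single libraries left out, and 2 with the replicate block. Without CB6F1/J replicate 2 the called window was Il15 at +3392 bp in place of +1316 bp. Allelic depth limits the comparison to 22 of the 208 tested windows.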
